A study of Homo sapiens with 8 samples.

Results

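The genes described here had higher transcript levels with LY500307, an agonist of oestrogen receptor beta, than with vehicle, both in KDM1A knockout and in control ES2 cells. ES2 is a human ovarian cancer cell line, and KDM1A encodes a histone demethylase that acts on lysine 4 of histone H3. The 4 groups were KDM1A knockout cells with 5 µM LY500307, knockout cells with vehicle, control cells with 5 µM LY500307 and control cells with vehicle, all treated for 48 h, with 2 libraries each. A member was a gene with a mean of at least 3 CPM (counts scaled to 1000000 gene counts per library) with LY500307 and a mean at least 1.5 times that with vehicle, in each population, with both LY500307 libraries above both vehicle libraries. Of 23228 genes listed, 60 met this rule, and 55 are members. HMOX1, IL1B, FOSB, REEP6 and DISP2 also met it but are left out by name. The members were thus chosen by their measured levels with LY500307 and with vehicle, so the rise itself is a description here and carries no test.

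Total gene counts per library lay between 24348937 and 30131097, and the members had 23 to 1500 counts in a library. KDM1A stood at 74.1 and 74.4 CPM with LY500307 and at 75.2 and 77.2 CPM with vehicle in knockout cells, against 240.9 and 244.0 CPM with LY500307 and 211.4 and 211.1 CPM with vehicle in control cells. The labels do not state the position of the edit, nor if the knockout line grew from a single clone. They also do not state that the 2 libraries of a group are separate cultures. The p-values therefore speak only of the spread between these libraries, and that spread may be technical. ESR2, the gene of oestrogen receptor beta, had 1 to 7 counts in a library and ESR1, the gene of oestrogen receptor alpha, 5 to 12. Of 12 ovarian and Müllerian epithelial markers, 9 reached 1 CPM in some library, KRT7 at 242 to 370 CPM and the lineage factor PAX8 at 1.41 to 7.52 CPM, and the mesenchymal filament gene VIM stood at 7460 to 12300 CPM. Of these 9, KRT19, EPCAM and CDH1 reached 1 CPM only in vehicle-treated control replicate 2, at 1.52, 2.05 and 1.27 CPM. In the other libraries they stood at 0.579 to 0.845, 0.433 to 0.819 and 0.2825 to 0.502 CPM. MUC16 had 1 count over the 8 libraries and PAX2 had 6. Of 10 haematopoietic markers 2 reached 1 CPM, PTPRC had 7 counts over the 8 libraries, and CD3E and HBB had 0. Those 2 were LYZ, at 0.246 to 2.32 CPM, and CD68, a lysosomal protein gene also known outside blood cells, at 64.3 to 75.8 CPM with LY500307 and 61.2 to 61.3 CPM with vehicle in knockout cells, against 111.7 to 113.1 CPM with LY500307 and 92.7 to 96.2 CPM with vehicle in control cells. Of 7 endothelial markers, 3 reached 1 CPM (CDH5 at 24.5 to 99.3, TIE1 at 210.1 to 332.2 and KDR at 1.27 to 3.34 CPM), and CLDN5 had 0 counts. Alignments that were not unique came to 50.5 and 48.9 per 100 uniquely aligned reads in LY500307-treated knockout cells and 52.8 and 52.7 in vehicle-treated knockout cells, against 46.6 and 46.6 in LY500307-treated control cells and 49.6 and 50.5 in vehicle-treated control cells. The part of this difference between treatments in the values below was not tested.

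Oestrogen receptor beta is a nuclear receptor that binds DNA and recruits coregulators, and in ovarian cancer models its agonists have been studied as growth-restraining agents. KDM1A, found in the CoREST complex, removes activating methyl marks and can silence genes, among them neuronal genes in non-neuronal cells. Several members belong to programmes that cells switch on under strain: the integrated stress response, which slows translation and raises factors such as ATF3, the heat shock response, which raises chaperones, and the hypoxia response, which raises carbonic anhydrases and enzymes of sugar breakdown.

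The rule was met by 139 genes in knockout cells, which is 1.03% of the 13498 genes tested, and by 353 genes, or 2.62%, in control cells. The 60 shared genes made up 43.2% of the list from knockout cells and 17.0% of that from control cells. Both LY500307 libraries lay above both vehicle libraries for 41.6% of the genes tested in knockout cells and 44.7% in control cells. Each of the 55 members was tested in the model across all genes. The LY500307 mean over the vehicle mean had a median of 1.66 in knockout cells (range 1.5 to 3.92) and 1.73 in control cells (range 1.51 to 3.54). Over the 10676 genes at or above 3 CPM in both populations with LY500307, the median of this ratio was 1.04 in each. The ratio reached 2 for 8 members in knockout cells and for 13 in control cells. HIST1H2BD, SCG2, CRISPLD2, VGF and TM7SF2 reached 2 in both. The ratio was larger in knockout cells for 22 members and larger in control cells for 33.

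**Figure D1:**
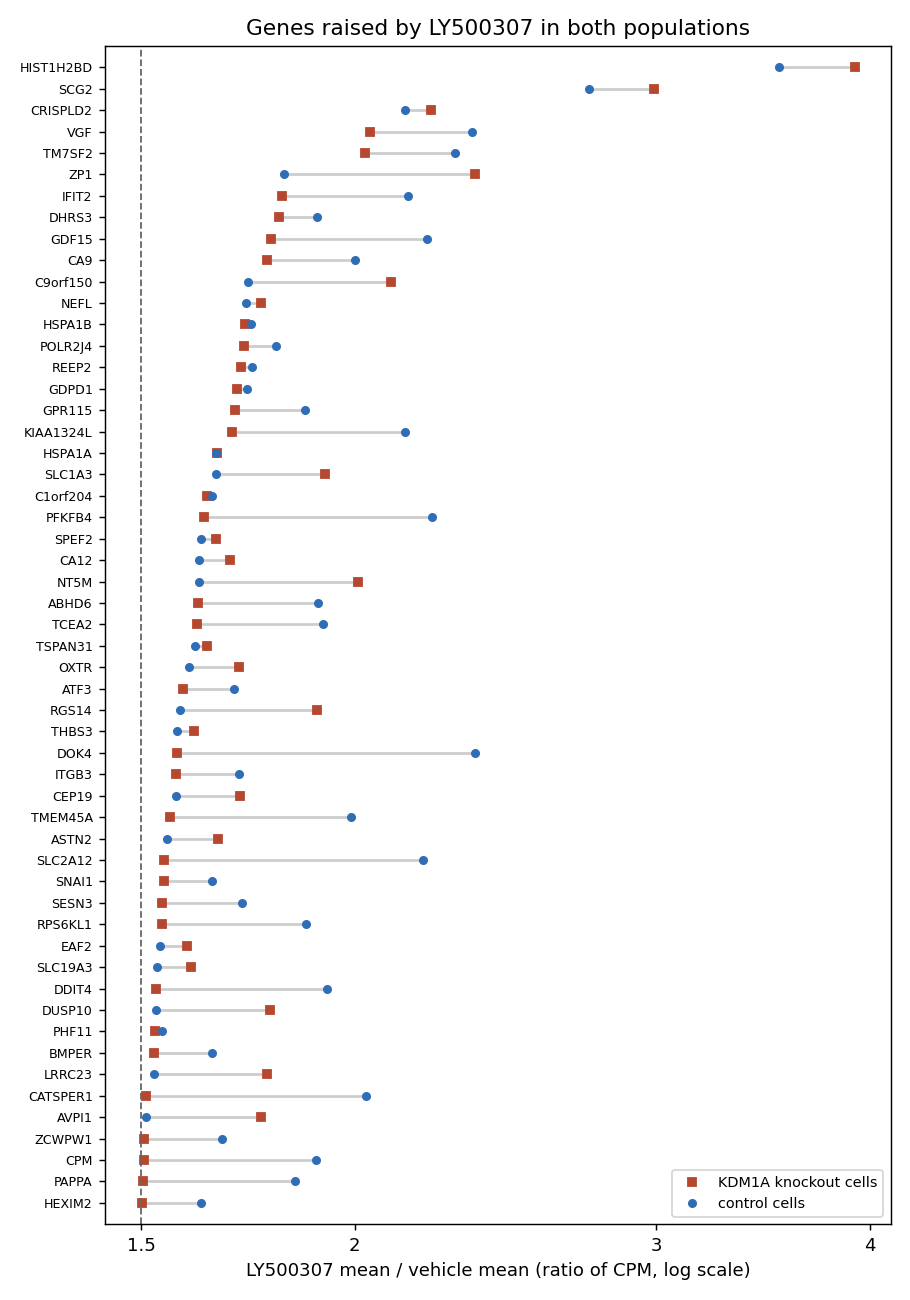
Ratio of the LY500307 mean to the vehicle mean (log axis) for 54 members, with squares for KDM1A knockout cells, circles for control cells, n = 2 libraries in each mean, and a dashed line at the threshold of 1.5. HIST1H2BD and SCG2 lie to the right of the other members in both populations, and most points lie between 1.5 and 2.

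Members were mostly genes of low level. Their vehicle mean had a median of 3.71 CPM in knockout cells and 4.06 CPM in control cells, against 42.1 CPM and 41.4 CPM over the genes at or above 3 CPM, and 33 members stayed under 10 CPM in all libraries. Just inside the threshold, the smaller of the 2 ratios was 1.503 for HEXIM2, 1.503 for PAPPA, 1.506 for CPM and 1.507 for ZCWPW1. Just outside, it was 1.497 for ABHD8, 1.496 for CABLES1, 1.493 for MAP1A, 1.492 for APOL6 and 1.491 for NUDT17. The rule divides by total gene counts. With library sizes scaled by TMM (trimmed mean of M values), 32 of the 55 met the same rule, and the genes that did not included DDIT4, DUSP10, BMPER, PAPPA, SLC2A12, TMEM45A, CATSPER1, RPS6KL1, SNAI1 and AVPI1. TMM factors were 1.03 and 1.04 in LY500307-treated knockout cells and 0.994 and 0.992 in vehicle-treated knockout cells, against 1.01 and 1.01 in LY500307-treated control cells and 0.961 and 0.963 in vehicle-treated control cells.

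Below, 54 of the members are taken by role, in 7 groups made from textbook roles after the members were known. The 7 stress response members comprised ATF3, DDIT4, GDF15, SESN3, HSPA1A, HSPA1B and IFIT2, with ratios of 1.53 to 1.81 in knockout cells and 1.66 to 2.20 in control cells. ATF3 (chr1:212738676-212794119, plus strand, hg19) encodes a transcription factor that stress signals induce. ATF3 stood at 8.53 and 7.92 CPM with LY500307 against 5.35 and 5.01 CPM with vehicle in knockout cells, and at 4.70 and 5.34 CPM with LY500307 against 3.36 and 2.55 CPM with vehicle in control cells. Its vehicle levels in knockout cells overlapped its LY500307 levels in control cells. DDIT4 encodes an inhibitor of the growth kinase complex mTORC1. DDIT4 stood at 30.3 and 35.6 CPM with LY500307 against 23.7 and 19.3 CPM with vehicle in knockout cells, and at 39.6 and 43.8 CPM with LY500307 against 22.3 and 21.0 CPM with vehicle in control cells. Here the vehicle levels of the populations overlapped, while the LY500307 levels were higher in control cells. GDF15, a secreted stress cytokine, also appears on lists of p53 targets. GDF15 measured 5.60 and 6.39 CPM with LY500307 against 3.42 and 3.29 CPM with vehicle in knockout cells, and 3.74 and 3.57 CPM with LY500307 against 1.51 and 1.81 CPM with vehicle in control cells. All knockout libraries with LY500307 lay above all other libraries, and knockout cells with vehicle lay below control cells with LY500307. SESN3, a sestrin that dampens mTORC1 signalling, had ratios of 1.54 in knockout cells and 1.72 in control cells. Its relatives SESN1 and SESN2 were chosen after the members were seen. Their LY500307 log2 fold changes were 0.02 and 0.15 in knockout cells and -0.003 and 0.12 in control cells.

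HSPA1A and HSPA1B lie side by side on chromosome 6 (chr6:31783320-31785723 and chr6:31795515-31798031, plus strand, hg19) and encode nearly the same inducible HSP70 chaperone. Alignments that were not unique were held in a closing summary line apart from the gene counts. Reads that fit both copies equally would thus be left out, so the level of each single copy is uncertain. HSPA1A stood at 25.1 and 27.3 CPM with LY500307 against 17.0 and 14.5 CPM with vehicle in knockout cells, and at 19.6 and 17.8 CPM with LY500307 against 11.5 and 11.0 CPM with vehicle in control cells. HSPA1B stood at 26.8 and 24.5 CPM with LY500307 against 14.9 and 14.9 CPM with vehicle in knockout cells, and at 20.4 and 20.1 CPM with LY500307 against 12.9 and 10.4 CPM with vehicle in control cells. Both copies ran in the same order of groups, with knockout cells on LY500307 highest and control cells on vehicle lowest. For the remaining heat shock genes and cochaperones, gathered after the members were seen, the LY500307 log2 fold change had a median of 0.13 in knockout cells (range -0.15 to 0.41) and 0.10 in control cells (range -0.20 to 0.75) over 24 tested genes, with 16 and 17 genes above 0. On the same scale HSPA1A stood at 0.68 in knockout cells and 0.66 in control cells, and HSPA1B at 0.73 and 0.73. The highest of the remaining genes in control cells, HSPA1L, was above both at 0.75, at levels of 1.93 and 1.45 CPM with LY500307 against 1.25 and 1.29 CPM with vehicle in knockout cells, and 2.40 and 3.43 CPM with LY500307 against 1.80 and 1.48 CPM with vehicle in control cells. In knockout cells the highest was DNAJB4 at 0.41, with 0.59 in control cells. DNAJB4 had 40.0 and 40.7 CPM with LY500307 against 31.5 and 26.8 CPM with vehicle in knockout cells. In control cells it had 40.5 and 36.8 CPM against 25.3 and 23.5 CPM. HSPA2 had log2 fold changes of 0.37 in knockout cells and 0.46 in control cells. DNAJB1, a cochaperone of HSP70, had log2 fold changes of 0.23 in knockout cells and 0.14 in control cells, and HSPH1, a nucleotide exchange factor, had 0.29 in knockout cells and 0.12 in control cells.

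Upstream sequences of 3 stress members are shown so that letters of textbook elements can be seen. Each is the 250 bases before the gene start, plus strand, from RefSeq on GRCh38.p14. A single start per gene was used, the first one listed, so sequences in front of any other start are not shown. The letters marked in ATF3 thus need not be the textbook element of that gene. Capitals mark the amino acid response letters TGATGNAA in ATF3 (chr1:212565157-212565406), and the paired heat shock unit GAANNTTC and the CCAAT box, read on either strand, in HSPA1A (chr6:31815293-31815542) and HSPA1B (chr6:31827488-31827737).
ATF3: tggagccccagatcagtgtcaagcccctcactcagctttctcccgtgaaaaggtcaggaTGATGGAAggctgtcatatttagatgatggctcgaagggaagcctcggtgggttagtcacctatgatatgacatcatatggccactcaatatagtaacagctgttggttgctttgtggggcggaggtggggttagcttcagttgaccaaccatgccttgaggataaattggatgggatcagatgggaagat
HSPA1A: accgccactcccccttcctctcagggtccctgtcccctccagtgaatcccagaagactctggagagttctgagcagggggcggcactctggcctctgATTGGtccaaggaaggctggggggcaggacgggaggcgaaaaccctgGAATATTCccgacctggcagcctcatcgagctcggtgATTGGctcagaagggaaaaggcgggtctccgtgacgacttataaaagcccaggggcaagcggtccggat
HSPA1B: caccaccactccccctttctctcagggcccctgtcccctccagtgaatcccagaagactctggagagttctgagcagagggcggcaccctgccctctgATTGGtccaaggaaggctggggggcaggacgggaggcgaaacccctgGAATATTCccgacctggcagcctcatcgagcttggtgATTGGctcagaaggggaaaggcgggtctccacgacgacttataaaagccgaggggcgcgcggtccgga
In an alignment of the last 2 windows, 235 of 251 columns were identical (93.6%), and each held 1 paired heat shock unit and 2 CCAAT boxes.

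IFIT2, an interferon-induced protein with tetratricopeptide repeats that binds RNA, was the 1 member on the list of interferon-stimulated genes. IFIT2 stood at 3.20 and 3.89 CPM with LY500307 against 1.65 and 2.26 CPM with vehicle in knockout cells, and at 6.14 and 6.10 CPM with LY500307 against 3.15 and 2.55 CPM with vehicle in control cells. Levels with LY500307 in knockout cells came close to those with vehicle in control cells, and the lower of them was just above both. Of 34 other tested genes of that list, 5 rose and 1 fell with LY500307 in knockout cells, and 11 rose in control cells, where 0 fell by edgeR (0 at an unadjusted p under 0.05, and 0 by DESeq2). IFIT1, its neighbour and relative, had 2.43 and 2.94 CPM with LY500307 against 1.33 and 1.10 CPM with vehicle in knockout cells, and 9.36 and 8.92 CPM with LY500307 against 4.14 and 4.27 CPM with vehicle in control cells. It rose in both, by 1.10 ± 0.231 on the log2 scale (SE, edgeR, Benjamini-Hochberg adjusted p = 0.000691) in knockout cells and by 1.05 ± 0.156 (adjusted p = 5.61e-06) in control cells. Of the other relatives, IFIT3 had log2 fold changes of 0.25 in knockout cells and 0.54 in control cells, and IFIT5 of -0.01 and -0.14. The count of 5 risers in knockout cells was 2 without either vehicle-treated knockout library or without LY500307-treated knockout replicate 1, was 1 with DESeq2, and was 9 with library totals in place of TMM. The fall of 1 gene there was lost without LY500307-treated knockout replicate 2 or vehicle-treated knockout replicate 1, and 1 gene fell in control cells without vehicle-treated control replicate 2.

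ATF3, DDIT4 and GDF15 were on the list of the integrated stress response. Of the 38 other tested genes, 14 rose and 3 fell with LY500307 in knockout cells, and 10 rose and 7 fell in control cells, 9 and 2 of them in both. Over all genes tested, 9.16% rose and 11.3% fell in knockout cells, and 12.3% rose and 14.0% fell in control cells. The list's median log2 fold change was 0.13 in knockout cells and 0.06 in control cells, against 0.01 and 0.01 over all genes tested. SLC3A2, the heavy chain of amino acid exchangers, had 476 and 503 CPM with LY500307 against 345 and 362 CPM with vehicle in knockout cells, and 180 and 194 CPM with LY500307 against 146 and 155 CPM with vehicle in control cells. It rose by 0.41 ± 0.0463 on the log2 scale in knockout cells (SE, edgeR adjusted p = 5.3e-08) and by 0.24 ± 0.049 in control cells (adjusted p = 0.000394). KLHL24, an adaptor of a ubiquitin ligase, rose by 0.43 ± 0.0851 (adjusted p = 0.000344) in knockout cells and by 0.97 ± 0.115 (adjusted p = 1.17e-07) in control cells. The 10 risers in control cells were 6 without LY500307-treated or without vehicle-treated control replicate 2, and the 7 fallers were 4 without vehicle-treated control replicate 2 and 4 with library totals. The 3 fallers in knockout cells were 1 without vehicle-treated knockout replicate 2. With library totals the split over all genes was 2287 risers and 954 fallers in knockout cells (TMM 1237 and 1522) and 2831 and 1011 in control cells (TMM 1665 and 1885). On that scaling the list had 21 risers and 2 fallers in knockout cells and 15 and 4 in control cells.

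**Figure D2:**
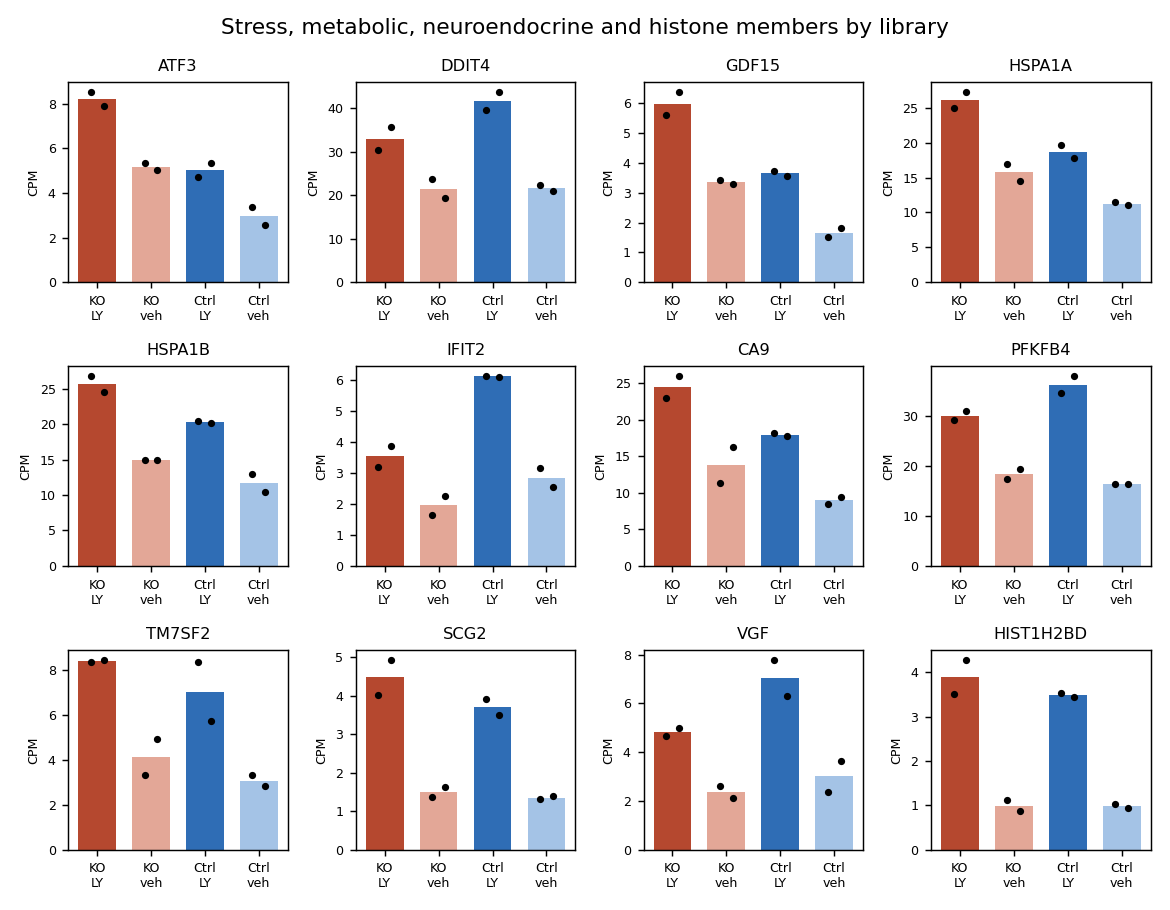
Level in CPM of 12 members, with bars for the mean of 2 libraries and points for each library, from left to right knockout with LY500307, knockout with vehicle, control with LY500307 and control with vehicle. In each panel and population both LY500307 points lie above both vehicle points, as the rule requires, and SCG2 and HIST1H2BD show the widest gaps relative to their level.

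The 11 members of acid-base balance, sugar and lipid metabolism and transport had ratios of 1.55 to 2.03 in knockout cells and 1.53 to 2.29 in control cells. CA9 and CA12 encode membrane carbonic anhydrases whose active site faces outward, where they take part in pH control, and CA9 is a textbook target of the hypoxia-inducible factors. CA9 stood at 23.0 and 26.0 CPM with LY500307 against 11.3 and 16.3 CPM with vehicle in knockout cells, and at 18.2 and 17.8 CPM with LY500307 against 8.48 and 9.49 CPM with vehicle in control cells. The vehicle level in knockout replicate 2 came near the LY500307 level of control cells. CA12 stood at 6.41 and 7.23 CPM with LY500307 against 4.15 and 3.92 CPM with vehicle in knockout cells, and at 5.79 and 6.25 CPM with LY500307 against 3.23 and 4.19 CPM with vehicle in control cells. CA12 is also a known oestrogen-responsive gene. PFKFB4 encodes an enzyme that sets the level of fructose 2,6-bisphosphate, a switch between sugar breakdown and synthesis. PFKFB4 stood at 29.1 and 30.9 CPM with LY500307 against 17.4 and 19.4 CPM with vehicle in knockout cells, and at 34.5 and 38.1 CPM with LY500307 against 16.3 and 16.4 CPM with vehicle in control cells. Vehicle levels were somewhat higher in knockout cells and LY500307 levels higher in control cells. Its relatives PFKFB2 and PFKFB3, chosen after the members were seen, had log2 fold changes of 0.18 and 0.03 in knockout cells and 0.35 and 0.03 in control cells. For 6 other tested carbonic anhydrase genes, chosen in the same way, the median was -0.23 in knockout cells and -0.01 in control cells. Of these, 2 and 3 were above 0. CA5B had -0.30 in knockout and -0.30 in control cells, and CA13 had -0.16 and -0.32. The rest stayed under 3 CPM.

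The CA9 window is shown because it holds letters of 2 elements known from this promoter (RefSeq, GRCh38.p14, chr9:35673678-35673927, plus strand). Capitals mark the AP-1 letters TGANTCA and the hypoxia core ACGTG, which reads CACGT here because it lies on the minus strand.
CA9: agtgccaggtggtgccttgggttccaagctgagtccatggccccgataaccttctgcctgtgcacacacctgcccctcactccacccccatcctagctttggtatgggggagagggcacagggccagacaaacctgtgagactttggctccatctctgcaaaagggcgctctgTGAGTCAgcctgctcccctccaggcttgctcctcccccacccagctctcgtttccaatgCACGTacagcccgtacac
Both elements stood nearer to the gene start than to the far end of the window.

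CA9, CA12 and PFKFB4 were on the list of hypoxia and glycolysis genes. Of its 36 other tested genes, 14 rose and 9 fell with LY500307 in knockout cells, and 14 rose and 7 fell in control cells, 12 and 5 of them in both. The 12 that rose in both were ANGPTL4, BNIP3L, NDRG1, EGLN1, KDM3A, ALDOC, SLC2A1, SLC2A3, P4HA1, P4HA2, TXNIP and MXI1, which include glucose transporters, collagen prolyl hydroxylases and an oxygen sensor of the hypoxia pathway. The 5 that fell in both were PFKL, ALDOA, GAPDH, ENO1 and PKM2, all enzymes of glycolysis. These 17 were named after their values were seen. GAPDH had 4163 and 4089 CPM with LY500307 against 4799 and 4940 CPM with vehicle in knockout cells, and 3921 and 4083 CPM with LY500307 against 4563 and 4691 CPM with vehicle in control cells. It fell by 0.30 ± 0.0346 on the log2 scale (SE, edgeR adjusted p = 8.8e-08) in knockout cells and by 0.28 ± 0.0346 (adjusted p = 2.12e-07) in control cells. NDRG1, a stress-responsive cytoplasmic protein, rose by 0.36 ± 0.0649 (adjusted p = 9.23e-05) in knockout cells and by 0.75 ± 0.0685 (adjusted p = 6.82e-10) in control cells. TXNIP, a brake on glucose uptake, rose by 0.56 ± 0.0563 (adjusted p = 4.81e-09) in knockout cells and by 0.20 ± 0.0554 (adjusted p = 0.00837) in control cells. The 9 fallers in knockout cells were 5 without vehicle-treated knockout replicate 2, and the 7 in control cells were 4 with library totals, when 17 genes of the list rose and 7 fell in knockout cells and 19 rose in control cells.

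TM7SF2 encodes a sterol reductase of cholesterol synthesis. TM7SF2 stood at 8.34 and 8.46 CPM with LY500307 against 3.34 and 4.95 CPM with vehicle in knockout cells, and at 8.33 and 5.74 CPM with LY500307 against 3.32 and 2.83 CPM with vehicle in control cells. Replicates differed widely in LY500307-treated control and in vehicle-treated knockout cells. LY500307-treated control replicate 1 lay near the LY500307-treated knockout libraries and replicate 2 below them. DHRS3 encodes a retinal reductase that stores vitamin A. DHRS3 stood at 4.01 and 3.85 CPM with LY500307 against 2.13 and 2.22 CPM with vehicle in knockout cells, and at 8.19 and 8.56 CPM with LY500307 against 4.42 and 4.39 CPM with vehicle in control cells. Levels in LY500307-treated knockout cells were just under those of vehicle-treated control cells. SLC1A3 encodes a glutamate and aspartate transporter. SLC1A3 stood at 29.0 and 29.5 CPM with LY500307 against 15.1 and 15.3 CPM with vehicle in knockout cells, and at 34.6 and 33.3 CPM with LY500307 against 21.2 and 19.8 CPM with vehicle in control cells. SLC2A12 encodes a sugar transporter. SLC2A12 stood at 2.51 and 4.58 CPM with LY500307 against 2.25 and 2.32 CPM with vehicle in knockout cells, and at 3.99 and 4.37 CPM with LY500307 against 1.72 and 2.09 CPM with vehicle in control cells. Replicate 1 of the LY500307-treated knockout cells was only a little above the vehicle libraries. GDPD1 encodes a glycerophosphodiester phosphodiesterase that acts on lysophospholipids. GDPD1 stood at 9.69 and 7.70 CPM with LY500307 against 5.11 and 5.08 CPM with vehicle in knockout cells, and at 3.28 and 3.18 CPM with LY500307 against 1.43 and 2.30 CPM with vehicle in control cells. Every knockout library was above every control library. NT5M encodes a mitochondrial deoxynucleotidase. NT5M stood at 3.94 and 4.50 CPM with LY500307 against 2.21 and 1.99 CPM with vehicle in knockout cells, and at 4.77 and 6.14 CPM with LY500307 against 3.15 and 3.57 CPM with vehicle in control cells. SLC19A3, a thiamine transporter, and ABHD6, a lipase of monoacylglycerols, had ratios of 1.60 and 1.62 in knockout cells and 1.53 and 1.90 in control cells.

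A further 7 lists held 1 member each. Their counts below use TMM, and many moved with single libraries or with the scaling: with library totals more genes rose in every one of these lists in both populations, except for the oestrogen-responsive list in control cells, where 5 rose under both. Of 30 other tested genes of cholesterol synthesis and uptake (member TM7SF2), 6 rose and 3 fell in knockout cells and 7 rose and 3 fell in control cells, while with library totals 11 rose and 1 fell in knockout cells and 11 rose and 0 fell in control cells. In knockout cells 3 rose and 1 fell without vehicle-treated replicate 2, and 5 fell without LY500307-treated replicate 2. In control cells 4 rose and 1 fell without either LY500307-treated library, and 4 rose and 0 fell without vehicle-treated replicate 2. Of 32 of lipid and vitamin A metabolism (DHRS3), 5 rose and 2 fell in knockout cells and 11 rose and 2 fell in control cells, against 9 and 2 and 16 and 2 with library totals. The risers in control cells were 4 to 7 without any 1 of the 4 control libraries, and 1 gene fell there without LY500307-treated replicate 1 or with DESeq2. In knockout cells 1 fell without LY500307-treated replicate 1 or vehicle-treated replicate 2. Of 28 solute carriers of amino acids and metals (SLC1A3), 10 rose and 2 fell in knockout cells and 8 rose and 3 fell in control cells, against 14 and 1 and 11 and 2 with library totals. In knockout cells 6 rose without LY500307-treated replicate 1 or with DESeq2, 4 rose without vehicle-treated replicate 1, and 0 fell without LY500307-treated replicate 1 or vehicle-treated replicate 2. In control cells 1 fell without LY500307-treated replicate 1 or vehicle-treated replicate 2.

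Of 27 genes on the list of the unfolded protein response of the endoplasmic reticulum (REEP2), 11 rose and 2 fell in knockout cells and 7 rose and 6 fell in control cells, against 12 and 1 and 11 and 3 with library totals. The member REEP2 encodes a protein that shapes this organelle and is not a textbook gene of that response. In knockout cells 7 rose without LY500307-treated replicate 1 and 6 without vehicle-treated replicate 2, while 0 fell without replicate 2 of either treatment and 1 without replicate 1 of either treatment or LY500307-treated control replicate 1. In control cells 4 rose without vehicle-treated replicate 2, and 3 fell without replicate 1 of either treatment. Of 37 AP-1 and immediate early factors (ATF3), 8 rose and 6 fell in knockout cells and 9 rose and 9 fell in control cells, against 11 and 3 and 10 and 6 with library totals. In knockout cells 5 rose without vehicle-treated replicate 2 and 3 fell without either vehicle-treated library, and in control cells 5 and 4 rose without vehicle-treated replicates 1 and 2. Of 17 oestrogen-responsive genes (CA12), 5 rose and 1 fell in knockout cells and 5 rose and 3 fell in control cells, against 6 and 1 and 5 and 3 with library totals. In knockout cells 2 rose without LY500307-treated replicate 1 or vehicle-treated replicate 2, 3 rose and 2 fell without vehicle-treated replicate 1, and 2 fell with no filter beyond 1 count. In control cells 2 rose and 1 fell without LY500307-treated replicate 1, 3 rose without replicate 2 of either treatment, and 1 fell without vehicle-treated replicate 2 or with DESeq2. Of 30 p53 targets (GDF15), 2 rose and 3 fell in knockout cells and 5 rose and 4 fell in control cells, against 5 and 0 and 10 and 2 with library totals. In knockout cells 0 fell without replicate 2 of either treatment. In control cells 3 rose and 2 fell without vehicle-treated replicate 1, 2 fell without LY500307-treated replicate 2, and 3 rose with DESeq2.

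SQLE, the squalene epoxidase of cholesterol synthesis, rose by 0.29 ± 0.0587 on the log2 scale (SE, edgeR adjusted p = 0.000371) in knockout cells and by 0.24 ± 0.0572 (adjusted p = 0.00211) in control cells. PLIN2, a coat protein of lipid droplets, rose by 0.52 ± 0.0709 (adjusted p = 1.57e-06) in knockout cells and by 0.47 ± 0.0734 (adjusted p = 1.2e-05) in control cells.

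The 5 neuronal and neuroendocrine members had ratios of 1.66 to 2.99 in knockout cells and 1.55 to 2.74 in control cells. SCG2 encodes secretogranin II, a protein of dense-core secretory granules (chr2:224461658-224467079, minus strand, hg19). SCG2 stood at 4.01 and 4.94 CPM with LY500307 against 1.37 and 1.63 CPM with vehicle in knockout cells, and at 3.92 and 3.50 CPM with LY500307 against 1.31 and 1.40 CPM with vehicle in control cells. These values rest on 32 to 136 counts per library, both LY500307-treated knockout libraries were above both LY500307-treated control libraries, and vehicle levels overlapped. VGF encodes a secreted neuropeptide precursor. VGF stood at 4.67 and 5.01 CPM with LY500307 against 2.62 and 2.12 CPM with vehicle in knockout cells, and at 7.80 and 6.32 CPM with LY500307 against 2.37 and 3.66 CPM with vehicle in control cells. With LY500307 the control libraries were above the knockout libraries, and vehicle levels overlapped. NEFL encodes the light chain of neurofilaments. NEFL stood at 6.37 and 7.70 CPM with LY500307 against 3.66 and 4.31 CPM with vehicle in knockout cells, and at 45.4 and 44.6 CPM with LY500307 against 27.2 and 24.8 CPM with vehicle in control cells. Knockout cells with LY500307 remained far below control cells with vehicle, at ratios of 1.76 in knockout cells and 1.73 in control cells. REEP2, a protein that shapes the endoplasmic reticulum, is placed here for its neuronal expression. REEP2 stood at 9.46 and 9.55 CPM with LY500307 against 5.47 and 5.61 CPM with vehicle in knockout cells, and at 7.38 and 6.75 CPM with LY500307 against 4.18 and 3.94 CPM with vehicle in control cells. ASTN2, an astrotactin of migrating neurons, had ratios of 1.66 in knockout cells and 1.55 in control cells.

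SCG2, VGF and NEFL were on the list of neuronal and neuroendocrine genes, many of which KDM1A complexes are known to silence. Of its 15 other tested genes, 1 rose and 4 fell with LY500307 in knockout cells, and 5 rose and 2 fell in control cells. SYP, a synaptic vesicle protein, rose in both, by 1.07 ± 0.275 on the log2 scale (SE, edgeR adjusted p = 0.00464) in knockout cells and by 1.78 ± 0.328 (adjusted p = 0.000113) in control cells. Its levels were low, at 2.70 and 2.18 CPM with LY500307 against 1.13 and 1.10 CPM with vehicle in knockout cells, and 2.26 and 1.91 CPM with LY500307 against 0.573 and 0.575 CPM with vehicle in control cells. TUBB3, a neuronal tubulin, fell by 0.46 ± 0.0545 (adjusted p = 1.49e-07) in knockout cells and by 0.45 ± 0.0542 (adjusted p = 1.7e-07) in control cells. UCHL1, a neuronal deubiquitinase, fell by 0.21 ± 0.0432 (adjusted p = 0.000494) in knockout cells and by 0.17 ± 0.0429 (adjusted p = 0.00298) in control cells. Without single libraries the risers were 0 to 2 in knockout cells and 2 to 6 in control cells, moved most by vehicle-treated control replicate 1, and the fallers 2 to 4 and 1 to 2. With library totals 2 rose and 3 fell in knockout cells and 6 rose and 1 fell in control cells. The 1 riser in knockout cells was lost without LY500307-treated replicate 1 or vehicle-treated replicate 2, with DESeq2, and with a floor of 3 CPM.

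The 8 members of transcription and chromatin had ratios of 1.5 to 3.92 in knockout cells and 1.54 to 3.54 in control cells. HIST1H2BD, now named H2BC5, encodes a histone H2B (chr6:26158350-26171577, plus strand, hg19). HIST1H2BD stood at 3.51 and 4.28 CPM with LY500307 against 1.13 and 0.863 CPM with vehicle in knockout cells, and at 3.53 and 3.43 CPM with LY500307 against 1.02 and 0.945 CPM with vehicle in control cells. In counts this was 91 and 118 with LY500307 against 28 and 26 with vehicle in knockout cells, and 100 and 95 with LY500307 against 25 and 23 with vehicle in control cells. It had the largest ratio of all members in both populations, 3.92 in knockout cells and 3.54 in control cells, and the populations overlapped under each treatment. Histone H2B genes are near copies of each other, so reads that fit several of them equally would be left out of the counts. Most such mRNAs lack a poly(A) tail, and the labels name a kit for mRNA as well as a guide for total RNA.

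Of 6 other tested H2B genes, gathered after the members were seen, 5 had a log2 fold change above 0 in each population, with a median of 0.60 in knockout cells and 0.95 in control cells. HIST1H2BK, an H2B gene known to yield polyadenylated transcripts, had 33.7 and 35.1 CPM with LY500307 against 24.7 and 22.5 CPM with vehicle in knockout cells, and 24.0 and 24.0 CPM with LY500307 against 14.0 and 15.3 CPM with vehicle in control cells. Its log2 fold changes were 0.49 in knockout cells and 0.63 in control cells. The remaining tested H2B genes stood at 0.246 to 2.14 CPM in all libraries, under the floor of 3 CPM. The medians thus rest mostly on genes of very low level. HIST1H2BH went the other way, with log2 fold changes of -0.35 in knockout cells and -0.55 in control cells. The window upstream of HIST1H2BD is shown because it holds 4 CCAAT boxes (RefSeq, GRCh38.p14, chr6:26157871-26158120, plus strand), which capitals mark on either strand.
HIST1H2BD: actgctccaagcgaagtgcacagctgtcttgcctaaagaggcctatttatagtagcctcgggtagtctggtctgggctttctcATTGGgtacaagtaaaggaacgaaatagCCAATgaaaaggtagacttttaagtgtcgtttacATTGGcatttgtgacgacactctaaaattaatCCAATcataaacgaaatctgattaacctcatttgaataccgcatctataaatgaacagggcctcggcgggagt
Boxes of this kind are known from replication-dependent histone promoters.

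SNAI1 encodes a repressor of epithelial genes. SNAI1 stood at 8.30 and 7.19 CPM with LY500307 against 4.67 and 5.34 CPM with vehicle in knockout cells, and at 2.75 and 4.15 CPM with LY500307 against 2.21 and 1.97 CPM with vehicle in control cells. Every knockout library was above every control library, and LY500307-treated control replicate 1 was only a little above vehicle. For 5 other tested genes of the SNAI, ZEB and TWIST families, chosen after the members were seen, the median LY500307 log2 fold change was 0.07 in knockout cells. It was 0.13 in control cells. The elongation factor genes TCEA2 and EAF2, HEXIM2, an inhibitor of the elongation kinase P-TEFb, the zinc finger genes PHF11 and ZCWPW1, and POLR2J4, a non-coding relative of a polymerase subunit gene, had ratios of 1.5 to 1.72 in knockout cells and 1.54 to 1.92 in control cells.

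The 7 adhesion, matrix and secreted members had ratios of 1.5 to 2.35 in knockout cells and 1.58 to 2.14 in control cells, and each of them was lower in knockout than in control cells averaged over treatments. ITGB3 encodes integrin beta 3, which binds vitronectin and fibrinogen (chr17:45331193-45391109, plus strand, hg19). ITGB3 stood at 6.99 and 6.72 CPM with LY500307 against 4.47 and 4.25 CPM with vehicle in knockout cells, and at 51.0 and 54.2 CPM with LY500307 against 31.4 and 30.1 CPM with vehicle in control cells. The populations did not come near each other under either treatment. CRISPLD2 encodes a secreted cysteine-rich protein. CRISPLD2 stood at 6.18 and 5.74 CPM with LY500307 against 2.45 and 2.92 CPM with vehicle in knockout cells, and at 17.0 and 18.1 CPM with LY500307 against 8.35 and 8.05 CPM with vehicle in control cells. BMPER encodes a secreted regulator of bone morphogenetic proteins. BMPER stood at 6.87 and 7.30 CPM with LY500307 against 4.83 and 4.45 CPM with vehicle in knockout cells, and at 22.3 and 23.3 CPM with LY500307 against 13.7 and 13.9 CPM with vehicle in control cells. For both genes knockout cells with LY500307 stayed below control cells with vehicle. ZP1 encodes a glycoprotein of the egg coat. ZP1 stood at 5.02 and 3.34 CPM with LY500307 against 1.53 and 2.02 CPM with vehicle in knockout cells, and at 6.92 and 8.59 CPM with LY500307 against 4.18 and 4.35 CPM with vehicle in control cells. The LY500307-treated knockout libraries differed from each other more than the vehicle libraries did. THBS3, a thrombospondin, PAPPA, a protease that cuts insulin-like growth factor binding proteins, and CPM, here the gene of carboxypeptidase M, had ratios of 1.61, 1.5 and 1.51 in knockout cells and 1.58, 1.85 and 1.90 in control cells. IGFBP4, the main substrate of PAPPA, had 2.12 and 1.89 CPM with LY500307 against 1.01 and 1.03 CPM with vehicle in knockout cells, and 13.5 and 16.0 CPM with LY500307 against 8.31 and 8.99 CPM with vehicle in control cells. It rose by 0.91 ± 0.25 on the log2 scale (SE, edgeR adjusted p = 0.00774) in knockout cells and by 0.69 ± 0.126 (adjusted p = 1e-04) in control cells. Over the 4 tested relatives and partners of PAPPA, which also include PAPPA2, STC1 and STC2, the median was 0.08 in knockout cells and 0.26 in control cells, and IGFBP4 had the highest value in both.

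**Figure D3:**
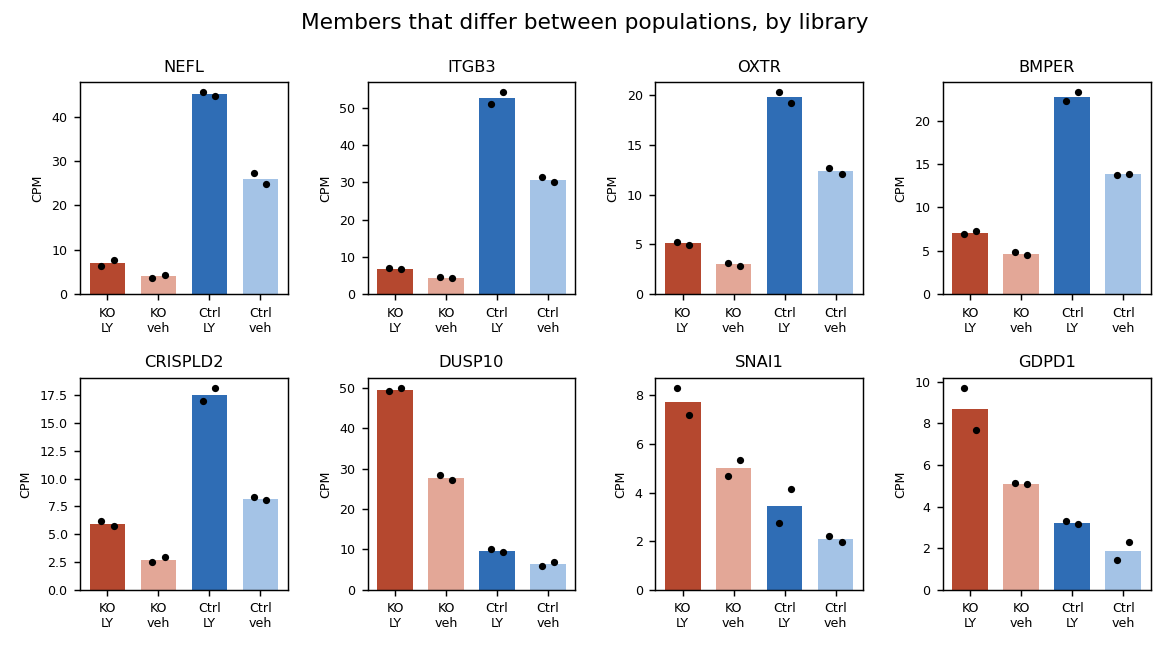
Level in CPM of 8 members named for a large difference between populations or a high ratio, with bars for the mean of 2 libraries and points for each library, from left to right knockout with LY500307, knockout with vehicle, control with LY500307 and control with vehicle. NEFL, ITGB3, OXTR, BMPER and CRISPLD2 are lower in both knockout groups than in both control groups, and DUSP10, SNAI1 and GDPD1 are higher.

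The 8 members of receptors and signalling had ratios of 1.51 to 1.90 in knockout cells and 1.51 to 2.35 in control cells. OXTR encodes the oxytocin receptor. OXTR stood at 5.21 and 4.97 CPM with LY500307 against 3.10 and 2.85 CPM with vehicle in knockout cells, and at 20.3 and 19.3 CPM with LY500307 against 12.7 and 12.1 CPM with vehicle in control cells. GPR115, now ADGRF4, encodes an adhesion receptor coupled to G proteins. GPR115 stood at 13.0 and 15.5 CPM with LY500307 against 8.25 and 8.50 CPM with vehicle in knockout cells, and at 6.71 and 6.17 CPM with LY500307 against 3.15 and 3.74 CPM with vehicle in control cells. OXTR was lower and GPR115 higher in each knockout library than in each control library. RGS14 encodes a protein that shortens G protein signals. RGS14 stood at 6.41 and 5.85 CPM with LY500307 against 3.46 and 2.99 CPM with vehicle in knockout cells, and at 13.2 and 12.5 CPM with LY500307 against 7.66 and 8.62 CPM with vehicle in control cells. DOK4 encodes a docking protein of tyrosine kinases. DOK4 stood at 5.67 and 5.48 CPM with LY500307 against 3.70 and 3.39 CPM with vehicle in knockout cells, and at 3.21 and 2.96 CPM with LY500307 against 1.15 and 1.48 CPM with vehicle in control cells. DUSP10 encodes a phosphatase that switches off the stress kinases p38 and JNK. DUSP10 stood at 49.3 and 50.0 CPM with LY500307 against 28.4 and 27.2 CPM with vehicle in knockout cells, and at 10.1 and 9.39 CPM with LY500307 against 5.81 and 6.90 CPM with vehicle in control cells. Knockout cells with vehicle were well above control cells with LY500307. For 10 other tested dual specificity phosphatase genes, chosen after the members were seen, 6 LY500307 log2 fold changes were above 0 in knockout cells and 7 in control cells. Their medians were 0.08 and 0.18. AVPI1 is a vasopressin-induced gene. AVPI1 stood at 12.4 and 13.3 CPM with LY500307 against 5.96 and 8.60 CPM with vehicle in knockout cells, and at 7.56 and 7.80 CPM with LY500307 against 5.61 and 4.56 CPM with vehicle in control cells. RPS6KL1 encodes a kinase-like protein. RPS6KL1 stood at 7.37 and 6.90 CPM with LY500307 against 4.51 and 4.75 CPM with vehicle in knockout cells, and at 3.25 and 3.43 CPM with LY500307 against 1.68 and 1.89 CPM with vehicle in control cells. All knockout libraries of RPS6KL1 were above all control libraries. CATSPER1 encodes a calcium channel known from sperm. CATSPER1 stood at 4.86 and 5.41 CPM with LY500307 against 3.38 and 3.42 CPM with vehicle in knockout cells, and at 10.5 and 8.70 CPM with LY500307 against 5.36 and 4.07 CPM with vehicle in control cells.

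The remaining 8 members had ratios of 1.56 to 2.10 in knockout cells and 1.53 to 2.14 in control cells. TMEM45A encodes a membrane protein. TMEM45A stood at 19.3 and 19.4 CPM with LY500307 against 13.2 and 11.7 CPM with vehicle in knockout cells, and at 21.7 and 20.1 CPM with LY500307 against 11.6 and 9.45 CPM with vehicle in control cells. The vehicle-treated control libraries lay below the lower vehicle-treated knockout library. C9orf150, now LURAP1L, lies on chromosome 9. C9orf150 stood at 4.36 and 4.79 CPM with LY500307 against 2.54 and 1.83 CPM with vehicle in knockout cells, and at 8.05 and 6.86 CPM with LY500307 against 4.22 and 4.39 CPM with vehicle in control cells. SPEF2 and LRRC23 are known from the flagellum of sperm and CEP19 from centrioles, TSPAN31 is a tetraspanin, and KIAA1324L and C1orf204 are named only. These 6 had ratios of 1.64 to 1.78 in knockout cells and 1.53 to 2.14 in control cells.

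As a description, the log2 ratio in knockout cells minus that in control cells was lowest for DOK4 at -0.58, SLC2A12 at -0.50, PFKFB4 at -0.44, CATSPER1 at -0.43 and TMEM45A at -0.35. It was highest for ZP1 at 0.37, NT5M at 0.31, C9orf150 at 0.28, RGS14 at 0.27 and AVPI1 at 0.22. HSPA1A stood at 0.00 and HSPA1B at -0.01.

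Whether the members differ between knockout and control cells, averaged over both treatments, was tested across all genes (edgeR, Benjamini-Hochberg). The rule did not compare the populations with each other, but it used the same libraries. Its floor of 3 CPM with LY500307 in both populations also limits how low a member can be in either of them. Of the 55 members, 19 were higher and 23 lower in knockout cells, and 13 did not pass the threshold. Over all 13498 genes tested, 36.4% were higher and 37.8% lower (74.2% in either direction), so that the members' shares lie near the background and are not a result about the members. The median log2 fold change was -0.03 over the members and -0.01 over all genes tested. Called differences of at least 2-fold were found for 6 higher and 8 lower members, against 5.89% higher and 8.36% lower of all genes tested. ITGB3 had the lowest value, -2.92 ± 0.0706 (SE, adjusted p = 1.24e-28). NEFL followed at -2.72 ± 0.0770 (SE, adjusted p = 1.51e-26), and OXTR at -2.05 ± 0.0909 (SE, adjusted p = 1.28e-20). These 3 were all lower in each of 4 knockout libraries than in each of 4 control libraries. The share of all genes separated in this way is not given here. Such separations, also those given above for single members, are therefore only a description. BMPER stood at -1.67 ± 0.0815 (SE, adjusted p = 2.04e-19), CRISPLD2 at -1.62 ± 0.0978 (SE, adjusted p = 9.25e-17) and RGS14 at -1.25 ± 0.100 (SE, adjusted p = 2.07e-13).

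On the higher side, DUSP10 had the highest value, 2.20 ± 0.0687 (SE, adjusted p = 3.36e-25). It was followed by GDPD1 at 1.40 ± 0.134 (SE, adjusted p = 1.91e-11) and RPS6KL1 at 1.20 ± 0.127 (SE, adjusted p = 2.39e-10). SNAI1 stood at 1.17 ± 0.134 (SE, adjusted p = 1.1e-09), GPR115 at 1.17 ± 0.0994 (SE, adjusted p = 8.12e-13) and DOK4 at 1.10 ± 0.145 (SE, adjusted p = 2.45e-08). Of the stress response members, 4 were higher (ATF3, GDF15, HSPA1A and HSPA1B), 2 lower (DDIT4 and IFIT2) and 1 not called. ATF3 stood at 0.72 ± 0.116 (SE, adjusted p = 1.09e-06), GDF15 at 0.82 ± 0.138 (SE, adjusted p = 2.24e-06) and HSPA1A at 0.44 ± 0.0708 (SE, adjusted p = 1.07e-06). All 7 adhesion, matrix and secreted members were lower, a count read beside the 37.8% of all genes that were lower and from a grouping made after the members were known. Of the 11 metabolic members 4 were higher and 4 lower, of the 8 receptor and signalling members 5 and 3, of the 8 transcription members 4 and 2, of the 5 neuronal members 1 and 2, and of the other 8 members 1 and 2. HIST1H2BD had a log2 fold change of 0.04 ± 0.189 (adjusted p = 0.844) and SCG2 of 0.17 ± 0.165 (adjusted p = 0.344). The sign for HIST1H2BD turned in some alternatives given further on. Calls that rested on single libraries were those of 7 members, all with small log2 differences. VGF (-0.49) lost its call without vehicle-treated control replicate 2 (-0.32), DDIT4 (-0.21) without vehicle-treated knockout replicate 2 (-0.14), and PHF11 (-0.47) without that library (-0.34) or LY500307-treated control replicate 1 (-0.32). TM7SF2 (0.31) lost it without LY500307-treated control replicate 2 (0.19), vehicle-treated control replicate 2 (0.25) or vehicle-treated knockout replicate 2 (0.15), and TCEA2 (0.22) without the same libraries (0.19, 0.16 and 0.20). EAF2 (0.30) lost it without replicate 1 of LY500307-treated knockout (0.28), vehicle-treated knockout (0.23) or LY500307-treated control cells (0.24), or vehicle-treated control replicate 2 (0.21). SPEF2 (0.36) lost it without replicate 1 of LY500307-treated knockout (0.26), vehicle-treated knockout (0.33) or vehicle-treated control cells (0.34), or without replicate 2 of LY500307-treated (0.33) or vehicle-treated control cells (0.37). With DESeq2 the calls of TM7SF2, TCEA2, EAF2 and SPEF2 were lost as well. The summed level of 9 fibroblast and mesothelial markers, nearly all from COL1A1, was 134 to 157 CPM in LY500307-treated and 219.5 to 224 CPM in vehicle-treated knockout cells, against 1083 to 1149 CPM and 1148 to 1206 CPM in control cells with LY500307 and with vehicle. DCN and COL1A2 stood near 0 in all libraries. LUM went the other way, at 1.16 to 2.43 CPM in knockout cells and up to 0.0411 CPM in control cells, as did CALB2, at 0.332 to 0.472 CPM in knockout cells and up to 0.164 CPM in control cells. PDGFRB had 0.193 and 0.182 CPM with LY500307 against 0.121 and 0.133 CPM with vehicle in knockout cells, and 2.97 and 2.89 CPM with LY500307 against 0.860 and 0.862 CPM with vehicle in control cells. The part of these markers in the results was not tested.

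**Figure D4:**
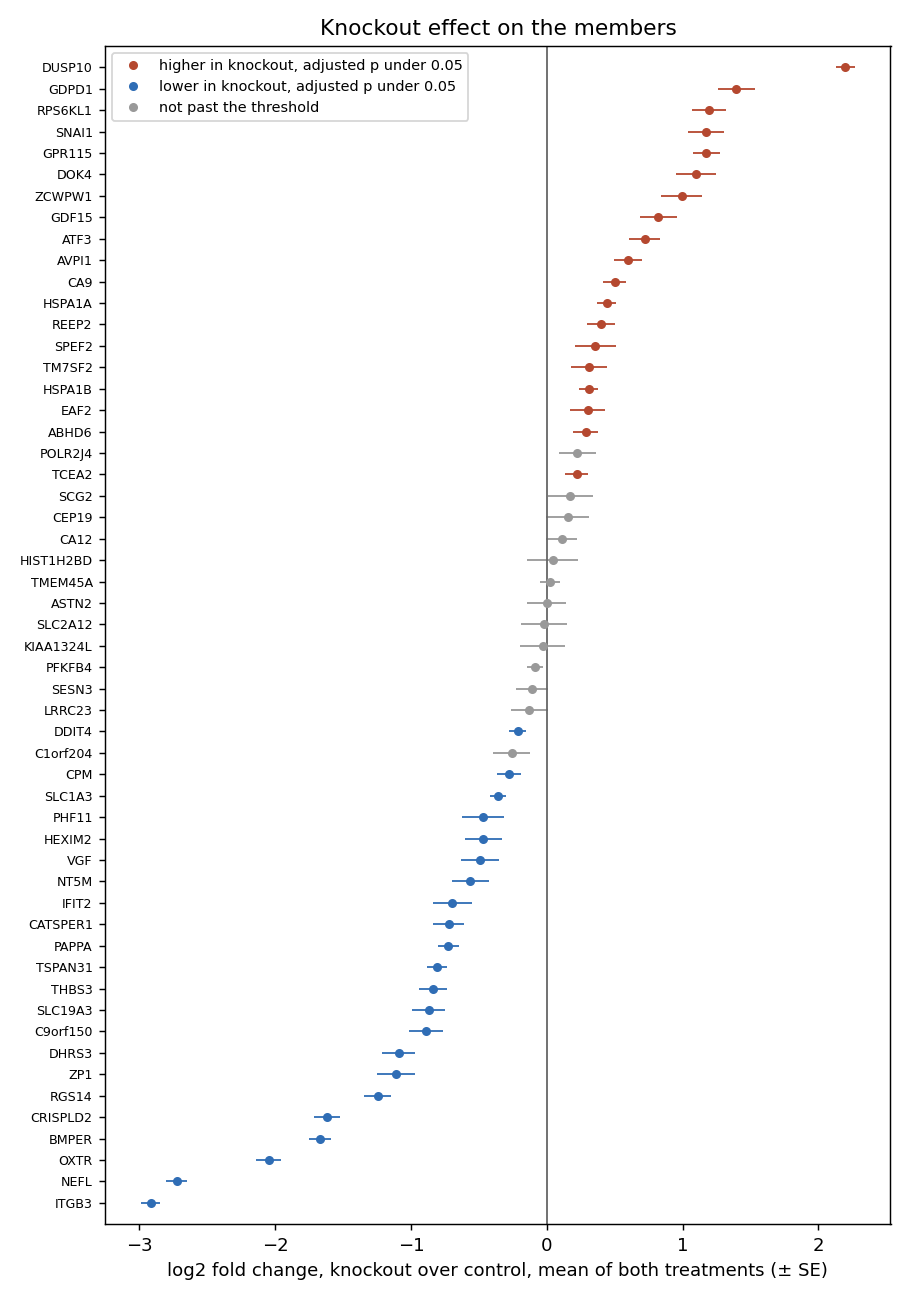
Log2 fold change of knockout over control, averaged over both treatments, for 54 members (points, with bars for ± SE from the edgeR model of 8 libraries), coloured by call. Values run from -2.92 for ITGB3 to 2.20 for DUSP10, with 22 of them below 0 and called, 19 above 0 and called, and 13 not called.

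All 55 members were placed on hg19 with GENCODE release 44, 50 by their symbol and 5 by a newer one, and 53 are annotated as protein coding. They lie on 18 chromosomes, with at most 6 on 1 chromosome. Those that overlap a coding gene on the opposite strand include CA9, IFIT2, CPM, OXTR, DOK4 and SLC2A12. As the labels do not say if strand was used in counting, reads of those pairs cannot be told apart. Upstream windows of 250 bases (RefSeq, GRCh38.p14) were matched for 46 members and for 10276 other tested genes. Median GC content was 62.2% in the members and 64.8% in the others. AP-1 letters (TGANTCA, either strand) were in 6.52% of the members' windows and 3.99% of the others, and were those of CA9, GPR115 and SLC2A12. The amino acid response letters TGATGNAA were in 4.35% of the members (ATF3 and SLC1A3) and 1.51% of the others. The cAMP response half-site TGACG was in 21.7% and 29.9%, the antioxidant core TGACNNNGC in 10.9% and 12.1%, the E-box CACGTG in 4.35% and 8.87%, and the metal response core TGCNCNC in 50.0% and 56.2%. The oestrogen half-site GGTCA was in 17.4% of the members and 29.8% of the others, and its full palindrome in 0 of 46 and 1 of 10276. The interferon core was in 2.17% and 2.46%. Of 3 motifs added after the values were seen, the CCAAT box was in 47.8% and 35.4%, the hypoxia core ACGTG, which every CACGTG contains, in 13.0% and 23.5%, and the paired heat shock unit GAANNTTC in 8.70% and 4.13%. A match is a description of letters in the window and says nothing of binding.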

How the data were processed

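RNA of ES2 cells was sequenced as single-end reads in 8 libraries, 2 per group. The deposited values are raw counts of reads per gene. Per the submitters' processing notes, the authors used bcl2fastq, then TopHat2 2.0.8b and HTSeq, with genome build hg19. Neither the annotation release nor the strand setting is named in the labels. Closing summary lines were removed before library sizes were computed, and these hold reads outside genes (10.7% to 12.8% of uniquely aligned reads). Levels are CPM of total gene counts.

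The members and gene lists were chosen with earlier results of these data known. Counts were fitted with edgeR 4.0.16 in R 4.3.3 (TMM, filterByExpr, glmQLFit, 1 mean per group, 8 libraries), which kept 13498 genes and left 4 residual degrees of freedom. Contrasts were tested two-sided with glmQLFTest and Benjamini-Hochberg adjustment over all genes at 0.05. A standard error is the log2 fold change over the root of F. The steps were tested on simulated data. Libraries of a group were kept apart, since a chi-square of their counts came to 3.05 to 4.30 per degree of freedom.

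Of the members 54 are named, and results of 1 member and of 1 gene outside the members are not reported here. Values in each library are given for members on a list, the 10 with the largest smaller ratio, the 8 of highest mean CPM, the 6 highest and 6 lowest called knockout effects, and the 5 largest ratio differences each way. From lists, up to 3 genes of smallest p were eligible. Alternatives were other scalings, filters, DESeq2 1.42.0, a replicate block and leaving out each library.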

Additional observations from a re-analysis of the deposited data

Results flagged for a closer look

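No group had enough libraries for a test of single outlying libraries. For 10 genes outside the members, named by the rule on lists, the LY500307 effect differed between knockout and control cells by the interaction term of the edgeR model at a Benjamini-Hochberg adjusted p under 0.05. These 10 were among 46 genes picked by small p in either LY500307 comparison. The interaction term is built from those same comparisons, so it is no separate test for them. The share of all genes past this threshold is not given here. Values are the log2 fold change in knockout cells minus that in control cells. It was -0.99 for PDE2A, a cyclic nucleotide phosphodiesterase, -0.93 for MMP3, a matrix metalloproteinase, and -0.73 for GABARAPL1, an autophagy protein. It was -0.67 for ABCA1, a cholesterol exporter, and -0.54 for KLHL24, an adaptor of a ubiquitin ligase. It was -0.43 for SAMD9, an interferon-induced antiviral factor, -0.39 for NDRG1, a stress-responsive protein, and -0.22 for CTGF, a matricellular growth factor. It was 0.36 for TXNIP, a brake on glucose uptake, and 0.31 for VEGFA, the vascular growth factor. At an edgeR adjusted p under 0.05, PDE2A, MMP3, GABARAPL1 and SAMD9 rose with LY500307 in control cells only. VEGFA rose (0.37) and ABCA1 fell (-0.60) in knockout cells only. KLHL24, NDRG1 and TXNIP rose in both populations, and CTGF fell in both (-0.41 in knockout and -0.19 in control cells). PDE2A stood at 40.1 and 41.1 CPM with LY500307 against 32.0 and 39.0 CPM with vehicle in knockout cells. In control cells it stood at 5.61 and 6.32 CPM with LY500307 against 2.78 and 2.42 CPM with vehicle. MMP3 stood at 2329 and 2225 CPM with LY500307 against 2407.5 and 2416.5 CPM with vehicle in knockout cells. In control cells it stood at 47.7 and 67.4 CPM with LY500307 against 29.7 and 33.7 CPM with vehicle. Both genes were thus far higher in knockout cells under each treatment.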

How the results depend on the processing

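Membership rests on a 1.5-fold threshold, mostly at low levels and with 2 libraries per group. The number of members was 5 at a ratio of at least 2, 286 at 1.3, 123 with a floor of 1 CPM, 11 with a floor of 10 CPM, 32 with TMM-scaled library sizes and 33 with DESeq2 size factors. Leaving out single libraries gave 51 to 67, of which 44 to 50 were among the 55. Genes higher with LY500307 in control cells numbered 1665, against 2831 with library totals and 941 to 1871 without single libraries. Those lower numbered 1885, against 1011 and 1205 to 1940. In knockout cells 1237 were higher, against 2287 with library totals, 784 with DESeq2 and 537 to 1217 without single libraries, and 1522 were lower, against 954 with library totals and 885 to 1519. The cause of these differences was not tested. Genes higher and lower in knockout cells averaged over treatments numbered 4660 to 4790 and 4917 to 5069 without single libraries, and members 15 to 19 and 21 to 24.

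Of 770 values of the members' averaged knockout effect under alternatives, 725 kept direction and side of the threshold, 23 lost the call, 1 gained it and 21 changed sign. Sign changes were found for 6 members, none of them called. ASTN2 (-0.00 in the model as reported) was 0.0048 with DESeq2 size factors in edgeR, 0.0388 with library totals, 0.00109 with no filter beyond 1 count and 0.00206 with DESeq2. With library totals KIAA1324L was 0.00788 and SLC2A12 0.0169. Without single libraries the values ran from -0.0905 to 0.0805 for ASTN2, -0.0513 to 0.139 for HIST1H2BD, -0.122 to 0.0729 for KIAA1324L, -0.213 to 0.00973 for SESN3, -0.271 to 0.153 for SLC2A12 and -0.049 to 0.0997 for TMEM45A. Calls were lost in some alternatives for DDIT4, EAF2, PHF11, SPEF2, TCEA2, TM7SF2 and VGF, and gained for C1orf204. Of 896 list counts, 136 moved by over 1.5 times.

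Same-numbered libraries hardly deviated together over all genes (correlations of 0.000614 to 0.07 over 6 pairs of groups). Counting noise also lowers such correlations, so they cannot settle if the numbers pair the samples. In each comparison over all genes, more genes were called with a replicate block than without it. With a replicate block 1989 and 2282 genes were higher and lower with LY500307 in control cells, 1630 and 1910 in knockout cells, 5039 and 5223 in knockout against control cells averaged over treatments, and 19 and 23 members. With it, genes that fell in knockout cells numbered 5 in the integrated stress response list, 6 in the cholesterol list, 4 in the unfolded protein response list, 2 in the oestrogen-responsive list and 6 among p53 targets, where 5 rose.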

Other observations

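The same rule turned round, with levels at least 1.5 times lower with LY500307, a vehicle mean of at least 3 CPM and no overlap, was met by 46 genes in knockout cells and 32 in control cells, and by 12 in both. They included ARHGAP22, DNHD1, FAM120C, FLJ23867, LEPR, LOC100506548, LOC283624, PKI55, RGS5, RPL13AP6 and TUBA1B. LEPR, the leptin receptor gene, stood at 6.21 and 5.70 CPM with LY500307 against 11.1 and 11.6 CPM with vehicle in knockout cells, and at 10.9 and 10.9 CPM with LY500307 against 17.5 and 18.9 CPM with vehicle in control cells. TUBA1B, an alpha tubulin gene, stood at 510 and 525 CPM with LY500307 against 808 and 855 CPM with vehicle in knockout cells, and at 724 and 742 CPM with LY500307 against 1080 and 1152 CPM with vehicle in control cells. These values are a description, since the levels chose the genes. No library overlapped between treatments within a population for any of the 12, as the rule requires.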
